A study of Homo sapiens with 20 samples.

Results

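The inducible small GTPase genes RRAD, GEM, RHOB, RND1 and RND3 were measured by RNA sequencing in an immortalized human pericyte line labelled wild-type. They were taken by symbol as 5 of the 58676 genes in the deposited count table, and the set was chosen by the RRAD value, which was much higher with PDGF-BB than in control cells. Pericytes are the mural cells that wrap small vessels. The cells, grown with fetal bovine serum, were left untreated or were exposed for 4 hours to 500 ng/mL of eNAMPT, to 20 ng/mL of PDGF-BB, or to both at these doses (each a recombinant human protein), with 5 libraries labelled as biological replicates in each of the 4 groups. eNAMPT is the extracellular form of the NAD salvage enzyme NAMPT, and PDGF-BB is a ligand of the receptor PDGFRB. All libraries come from 1 cell line, and the labels do not say whether the replicates were grown on separate days, so p-values measure the spread between these samples.

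Small GTPases switch between a GTP-bound and a GDP-bound form. RRAD and GEM belong to the RGK family (named for Rad, Gem and Kir), which bind the beta subunits of voltage-gated calcium channels and lower calcium entry. RHOB is a short-lived relative of RHOA found on endosomes and known as a growth factor-inducible gene. RND1 and RND3 hydrolyse GTP hardly at all, so they are controlled largely by their amount, and they loosen actin stress fibres.

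RefSeq (GRCh38.p14) promoter windows, from 250 bases before to 50 after a listed start, were found for 2 of the 5 members, RHOB and RND3. Both are printed 5′ to 3′ on the gene's strand, as the only members with such a window. Capitals mark matches, on either strand, to the CCAAT box, the TATA box (letters TATAAA) and the CArG box, the element bound by serum response factor. RHOB lies on the plus strand at chr2:20446824-20447123 and RND3 on the minus strand at chr2:150487618-150487917.
RHOB: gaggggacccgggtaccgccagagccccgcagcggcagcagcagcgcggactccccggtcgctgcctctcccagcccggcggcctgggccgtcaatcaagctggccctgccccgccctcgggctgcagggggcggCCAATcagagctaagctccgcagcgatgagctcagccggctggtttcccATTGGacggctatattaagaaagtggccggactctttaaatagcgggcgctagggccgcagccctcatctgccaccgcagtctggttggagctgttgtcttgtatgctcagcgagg
RND3: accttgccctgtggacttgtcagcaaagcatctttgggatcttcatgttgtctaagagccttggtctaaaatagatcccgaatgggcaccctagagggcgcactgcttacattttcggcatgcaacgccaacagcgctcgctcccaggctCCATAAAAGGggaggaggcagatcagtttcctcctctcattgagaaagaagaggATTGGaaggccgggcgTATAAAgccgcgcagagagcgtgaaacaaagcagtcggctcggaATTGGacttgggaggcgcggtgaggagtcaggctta

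The RND3 window held CCATAAAAGG, a CArG box, whose first base lay at -100 from the listed start, and TATAAA at -30. A second RND3 start is listed 5′ of this one, at position 150487695, and its window held the same matches. Counted from that start, the CArG box lay at -72 and TATAAA at -2, so these distances depend on the start used. Both starts lie inside the GENCODE 29 gene, which spans positions 150468195 to 150539011 of chromosome 2. The RHOB window held CCAAT at -115 and its reverse complement at -66, and no CArG box. Of 35116 promoter windows of 300 bases in the same table, 1.29% held a CArG box, 11.5% TATAAA and 34.6% CCAAT. Neither window held TGANTCA (AP-1 site, found in 7.71% of windows) or TGACGTCA (cyclic AMP response element, 1.85%). These matches describe the letters only.

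The libraries were alike in depth. Gene counts ranged from 2894878 to 4011066 per library, mitochondrial genes took 8.28% to 9.71% of counts, and spike-in transcripts took 1.57% to 2.91% of all counts. Levels are counts per 1000000 counts (CPM) after TMM scaling, a correction for library composition whose factors ran from 0.967 to 1.03. Pericyte markers were detected for 11 of 12 genes, with PDGFRB at 117 to 136 CPM in the group means, while HIGD1B had no count and DES at most 7 counts in any library. Of the endothelial markers, CDH5 had at most 3 counts in any library, PECAM1 at most 20 and TEK at most 21. Of the leukocyte markers, PTPRC had at most 2 counts and LYZ none, while CD14 had 33 to 79 and CD68 4 to 22. Striated muscle, a tissue known for RRAD and GEM, was represented by at most 2 counts of MYH7, MYH2, TNNT2 or RYR1 and at most 5 of MYOD1 in any library, with more of ACTC1 (0 to 11) and ACTN2 (5 to 31).

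The members spanned a wide range of levels. Per kb of merged exons, control cells held 62.4 CPM of RND3, 17.4 of RHOB, 5.22 of RRAD, 2.36 of GEM and 0.214 of RND1. The library ranges per kb did not overlap between RND3 and RHOB or between RHOB and RRAD, whereas RRAD (2.00 to 8.42) and GEM (2.12 to 2.85) overlapped. With PDGF-BB, RRAD reached 17.1 CPM per kb, near the 17.4 of RHOB in control cells and below the 27.8 of RHOB in the same cells. Whether the library protocol covers whole transcripts evenly is not given in the sources used here, so per-length values are approximate. Among relatives, RHOA stood at 260 CPM per kb and RHOC at 34.6 in control cells, while REM1, REM2 and RND2 had at most 2, 12 and 11 counts in any library.

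**Figure D1:**
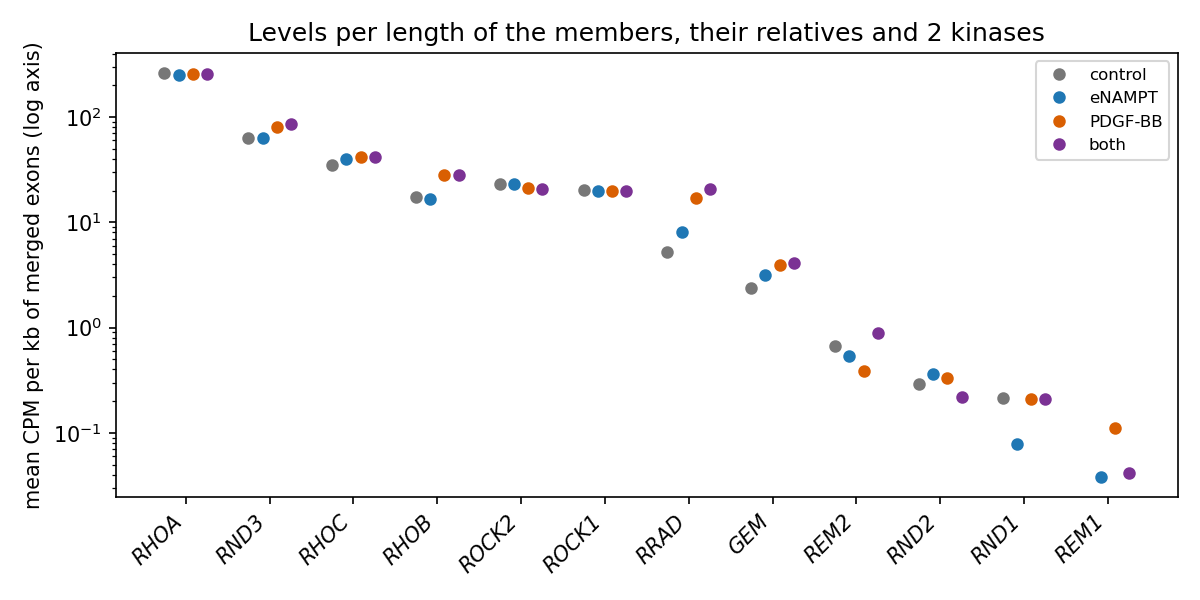
Mean CPM per kb of merged exons (log axis) for the 5 members, 5 relatives and the kinases ROCK1 and ROCK2, 1 point per group of 5 libraries; a group mean of 0 is not drawn. RRAD runs from 5.22 in control to 20.5 with both factors, while RHOA stays between 249 and 260.

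RRAD, an RGK protein that restrains calcium channels (ENSG00000166592, GRCh38 chromosome 16, 66921679 to 66925644, minus strand), was the gene the choice rested on. The control libraries read 14.4, 10.0, 9.85, 6.945 and 3.41 CPM, and those with PDGF-BB 30.1, 35.6, 30.5, 27.6 and 22.02 CPM. Each PDGF-BB library lay above every control library. The means were 8.92 ± 4.07 (SD, n = 5) and 29.2 ± 4.94 CPM, a log2 fold change of 1.70 (SE 0.24), given without a test because it chose the gene. In control libraries RRAD had 28.8 counts on average, so its lowest levels are the least precise.

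PDGF-BB was also added to cells that had eNAMPT, in libraries other than those with PDGF-BB alone and their controls, and RRAD rose there. The members were chosen with earlier results of these data known, so the test below is not free of that choice. The 5 eNAMPT libraries read 20.4, 15.85, 15.5, 8.61 and 7.835 CPM, and those with both factors 33.9, 35.5, 49.4, 29.8 and 26.6 CPM. The groups did not overlap, and the library at 49.4 CPM stood highest of all 20. The means were 13.65 ± 5.32 (SD, n = 5) and 35.03 ± 8.76 CPM, and edgeR's quasi-likelihood test gave a log2 rise of 1.35 (SE 0.22) with a Benjamini-Hochberg adjusted p of 0.000126 over all genes. By size of rise RRAD ranked 23 among the 12111 genes tested. In a bulk sample, a change in RNA per cell and a change in the share of cells carrying the transcript cannot be told apart.

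eNAMPT alone gave a smaller RRAD difference that did not pass. From 8.92 to 13.65 CPM, the log2 fold change against control was 0.62 (SE 0.26), with an unadjusted p of 0.0212 and an adjusted p of 0.9998 (edgeR). Of the eNAMPT libraries, 3 lay above the highest control library and the groups overlapped. This comparison shares its control libraries with the contrast that chose RRAD. With eNAMPT added to PDGF-BB, RRAD went from 29.2 to 35.03 CPM, a log2 difference of 0.26 (SE 0.21, adjusted p 0.9998, edgeR), with a 95% interval of -0.18 to 0.70. Spike-in scaling gave 0.04 (0.194 relative to the median of all genes), and without the library at 49.4 CPM the value was 0.107. The interval holds both no change and a rise of the size seen with eNAMPT alone.

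**Figure D2:**
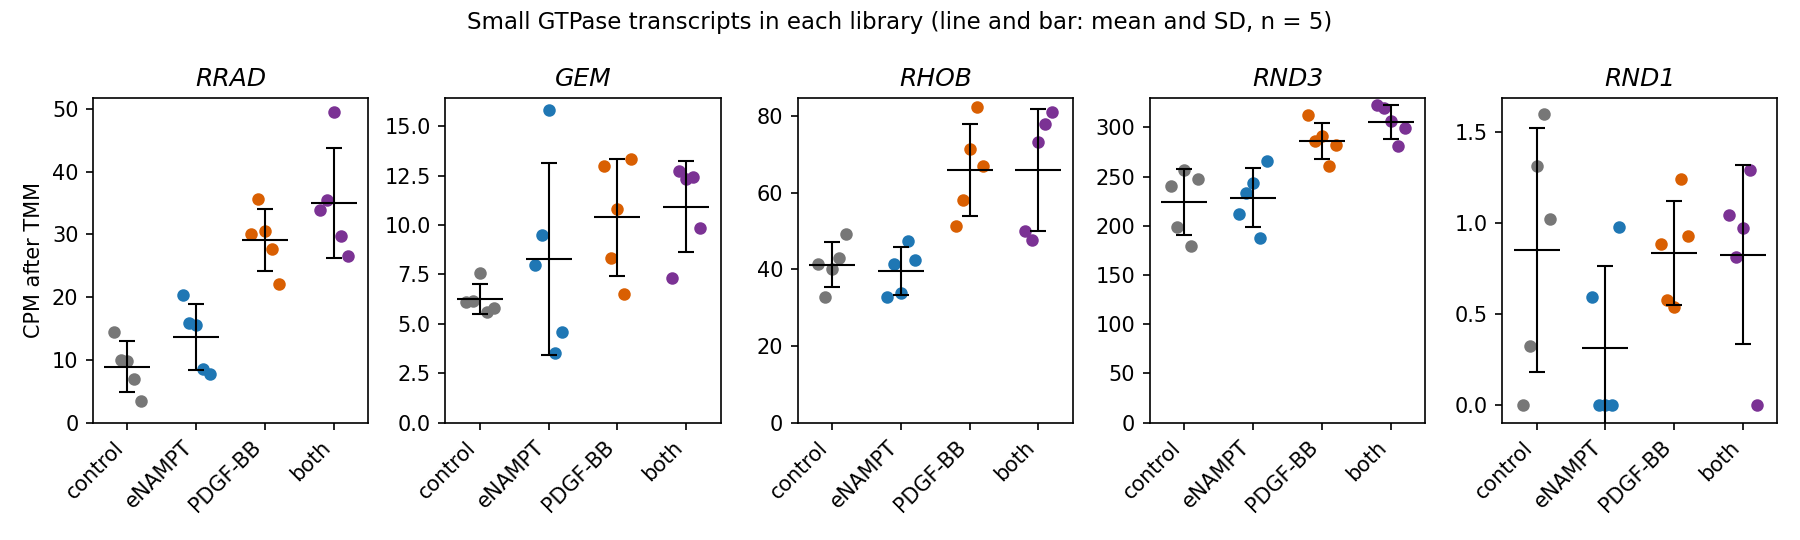
CPM after TMM of each member in the 20 libraries, 1 point per library, with the mean as a line and the SD as a bar (n = 5); each panel has its own linear axis. Every RRAD library without PDGF-BB lies below every RRAD library with it, while for RHOB 1 control library at 49.1 CPM lies above 1 library with both factors at 47.7 CPM, and RND1 stays under 2 CPM throughout.

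GEM, the second RGK gene (ENSG00000164949, chromosome 8, 94249253 to 94262350, minus strand), did not pass in any comparison tested. Control libraries read 5.61, 5.80, 6.12, 6.14 and 7.55 CPM, and PDGF-BB libraries 6.52, 8.33, 10.8, 13.0 and 13.3 CPM. Of the PDGF-BB libraries, 4 lay above the highest control library and the other fell among the controls. The log2 fold change in that contrast was 0.735 (SE 0.30), again a description. eNAMPT libraries spread most widely, at 3.51, 4.57, 7.99, 9.51 and 15.8 CPM, and covered the whole control range. Libraries with both factors read 7.33, 9.86, 12.35, 12.4 and 12.7 CPM and overlapped the eNAMPT libraries. GEM was 0.39 higher on the log2 scale with both factors than with eNAMPT (SE 0.29, 95% interval -0.22 to 1.00, adjusted p 0.689, edgeR). Without the eNAMPT library at 15.8 CPM this value was 0.776, and the eNAMPT value against control fell from 0.425 to 0.042. GEM had 11 to 58 counts per library, and how much of its spread is counting error was not tested. With eNAMPT on top of PDGF-BB, GEM differed by 0.08 (95% interval -0.52 to 0.68, adjusted p 0.9998, edgeR).

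RHOB, the endosomal GTPase (ENSG00000143878, chromosome 2, 20447074 to 20449445, plus strand, the gene of the first promoter above), was higher wherever PDGF-BB was given. Control libraries read 32.9, 40.1, 41.3, 43 and 49.1 CPM, and PDGF-BB libraries 51.4, 58.01, 67.0, 71.5 and 82.3 CPM, with no overlap. That description corresponds to a log2 fold change of 0.68 (SE 0.14). RHOB also rose when PDGF-BB was added to eNAMPT. The eNAMPT libraries read 32.8, 33.8, 41.5, 42.4 and 47.5 CPM, and libraries with both factors 47.7, 49.9, 73.15, 77.9 and 81.2 CPM. The lowest library with both factors only just exceeded the highest eNAMPT library. By edgeR the rise was 0.74 on the log2 scale (SE 0.14, adjusted p 0.00119), from 39.6 ± 6.20 (SD, n = 5) to 66.0 ± 15.95 CPM. eNAMPT did not move RHOB detectably: the log2 difference was -0.06 (95% interval -0.38 to 0.25) against control and 0.00 (-0.29 to 0.29) on top of PDGF-BB, both with adjusted p of at least 0.9998 (edgeR).

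RND3, which loosens stress fibres (ENSG00000115963, minus strand of chromosome 2, the gene of the second promoter above), was the most abundant member. Control libraries read 179, 198, 240, 248 and 256 CPM, and PDGF-BB libraries 261, 282, 286, 291 and 312 CPM. All PDGF-BB libraries lay above all control libraries, by a log2 fold change of 0.35 (SE 0.09). With eNAMPT the libraries read 187, 212, 234, 243 and 266 CPM, and with both factors 281, 299, 307, 320 and 323 CPM. These groups were also separate, and RND3 rose by 0.42 on the log2 scale (SE 0.09, adjusted p 0.00292, edgeR). This was a 1.34-fold rise, the smallest of the 3 that passed. Against control, eNAMPT alone gave 0.03 (95% interval -0.16 to 0.21), and on top of PDGF-BB it gave 0.09 (-0.09 to 0.28), both with an adjusted p of 0.9998 (edgeR).

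RND1, the close relative of RND3 (ENSG00000172602, chromosome 12, 48857145 to 48865898, minus strand), was barely detected and did not pass the filter on low counts, so it was not tested. Its counts were 0, 1, 3, 4 and 6 in control, 0, 0, 0, 2 and 3 with eNAMPT, 2, 2, 3, 3 and 4 with PDGF-BB, and 0, 3, 3, 3 and 5 with both. The totals over 5 libraries were 14, 5, 14 and 14 counts. A count of 0 in a library allows up to 3 counts, so no order of the groups can be read from these values.

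Of the 5 members, 4 were tested, and 3 passed when PDGF-BB was added to eNAMPT, all upward. In that comparison 1.53% of the 12111 genes passed in either direction. The members were chosen with earlier results of these data known, so 3 of 4 is not the share of an unselected set. None of the 4 passed with eNAMPT alone, where 0.0743% of genes passed (edgeR), or with eNAMPT added to PDGF-BB, where 0.0578% passed. At an unadjusted p under 0.05, 1 of the 4 (RRAD) was below it with eNAMPT alone, beside 3.61% of all genes, and 0 with eNAMPT on top of PDGF-BB, beside 3.4% of all genes. DESeq2 and limma-voom each gave the same counts of members, 3, 0 and 0. In the contrast that chose the members, 1.21% of genes passed, and with both factors against control 1.98%.

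Between both factors and control, which share those control libraries, the log2 differences were 1.96 (SE 0.24) for RRAD, 0.82 (SE 0.30) for GEM, 0.68 (SE 0.14) for RHOB and 0.45 (SE 0.09) for RND3. RHOB libraries overlapped there, 4 of 5 with both factors lying above the highest control, while those of RRAD and RND3 did not. The effect of PDGF-BB in the presence of eNAMPT minus that in its absence was -0.36 (SE 0.33) for RRAD, -0.34 (SE 0.41) for GEM, 0.06 (SE 0.20) for RHOB and 0.07 (SE 0.12) for RND3 on the log2 scale. Each of these differences was close to or smaller than its SE. They were not tested, since the contrast that chose the members is part of them. The signs of the RHOB and RND3 differences turned under spike-in scaling (-0.065 and -0.129), whose median over all genes was -0.159. Relative to that median the RHOB and RND3 differences were 0.094 and 0.030.

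**Figure D3:**
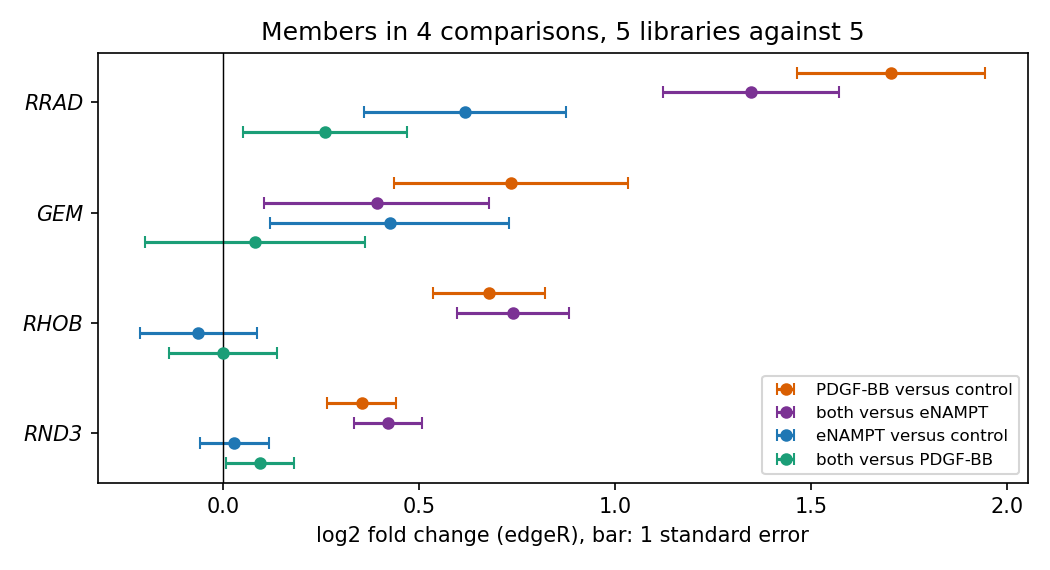
Log2 fold changes of the 4 tested members (edgeR) in 4 comparisons of 5 libraries with 5, with bars of 1 SE. Both PDGF-BB comparisons lie to the right of 0 for every gene drawn, from 0.35 for RND3 to 1.70 for RRAD, whereas the eNAMPT values for RHOB and RND3 lie within about 1 SE of 0.

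Scaling by spike-in counts instead of TMM moved the median of all genes to -0.143 when PDGF-BB was added to eNAMPT. RRAD then still passed, at 1.15 (adjusted p 0.00204, edgeR), but RHOB at 0.62 (adjusted p 0.317) and RND3 at 0.276 (0.851) no longer did. Relative to the shifted median RHOB stood at 0.763 and RND3 at 0.419. In the authors' deposited table the log2 difference between both factors and eNAMPT was 0.674 for RRAD (adjusted p 1.66e-05), 0.518 for RHOB (0.000772), 0.37 for RND3 (0.000719) and 0.157 for GEM (0.745). These deposited differences were smaller than the edgeR ones, most of all for RRAD and GEM, the tested members with the fewest counts.

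The wider pathway was examined through 171 other genes in 10 lists, of which 138 were tested. When PDGF-BB was added to eNAMPT, 1 of the 138 rose and 2 fell, 2.17% against 1.53% of all genes, with a median log2 fold change of 0.01 beside 0.00 over all genes. None passed with eNAMPT alone or with eNAMPT added to PDGF-BB (edgeR), where 4 and 3 of the 138 had an unadjusted p under 0.05, beside 437 and 412 of all 12111 genes (DESeq2 was not counted for these lists). RHOA, a GTPase that drives stress fibre formation, was near level in each of these comparisons, with log2 values of -0.06 to 0.04. RHOC had 0.21 (SE 0.08) with eNAMPT against control, with an adjusted p of 0.9998 (edgeR). With PDGF-BB against control RHOC had 0.275 (SE 0.08, adjusted p 0.104, edgeR), and those libraries did not overlap. When PDGF-BB was added to eNAMPT, RHOC had 0.07 (SE 0.08, adjusted p 0.839, edgeR). ROCK1 and ROCK2, kinases that promote actomyosin contraction, had log2 values of 0.01 and -0.13 when PDGF-BB was added to eNAMPT, with adjusted p of 0.992 and 0.527 (edgeR).

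Of 9 tested partners of Rnd proteins, 1 fell and 0 rose when PDGF-BB was added to eNAMPT, where 1.53% of all genes passed. The gene that fell was ARHGAP35, the p190A protein that Rnd proteins bind. Its eNAMPT libraries read 78.35, 81.9, 91.6, 91.95 and 94.96 CPM, and those with both factors 57.4, 61.4, 65.2, 68.35 and 69.5 CPM. The groups were separate, and edgeR put the log2 difference at -0.45 (SE 0.10, adjusted p 0.0047). ARHGAP5, the other p190 protein gene, named here after its value was seen, had -0.15 (SE 0.10, adjusted p 0.643, edgeR).

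ARHGAP24, a GAP for RAC1 and CDC42, read 32.5, 32.8, 35.4, 36.2 and 37.1 CPM with eNAMPT and 16.1, 21.4, 22.1, 26.3 and 26.7 CPM with both, again without overlap. It fell by 0.62 on the log2 scale (SE 0.14, adjusted p 0.00973, edgeR), and the call ended without the library at 16.1 CPM, replicate 1 (-0.528, adjusted p 0.0545). ARHGAP31, another GAP for RAC1 and CDC42, rose by 0.52 (SE 0.13, adjusted p 0.0187, edgeR), from 52.9 ± 8.91 (SD, n = 5) to 75.9 ± 11.6 CPM, with overlap. That call ended without eNAMPT replicate 3 (0.479, adjusted p 0.0741) or 4 (0.467, 0.0845), or replicate 5 of the combined group (0.425, 0.105). With spike-in scaling none of the calls of ARHGAP35, ARHGAP24 and ARHGAP31 held (adjusted p 0.350, 0.175 and 0.819, edgeR). Their log2 values were then -0.586, -0.754 and 0.376, or -0.443, -0.611 and 0.519 relative to the shifted median. ARHGAP24 and ARHGAP31 overlap genes on the opposite strand, and whether counting used the strand is not given in the sources used here. ARHGAP35, ARHGAP24 and ARHGAP31 each overlap a gene on their own strand.

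No gene passed among 21 other Ras subfamily GTPases, 17 calcium channel subunits and other RGK partners or 8 prenylation genes in that comparison (edgeR). Against control, 1 of the 138 genes passed with PDGF-BB (0.725%, beside 1.21% of all genes) and 2 with both factors (1.45%, beside 1.98%). These genes were named after their values were seen. ARHGEF2, a RHOA exchange factor, rose by 0.48 (SE 0.11, adjusted p 0.0171) with PDGF-BB and by 0.49 (SE 0.11, 0.00883) with both. KIF9, a kinesin that binds GEM, rose by 1.05 (SE 0.26, adjusted p 0.0169, edgeR) with both factors. Against control, KIF9 had 0.848 (adjusted p 0.918, edgeR) with eNAMPT alone and 0.764 (adjusted p 0.203, edgeR) with PDGF-BB alone. When PDGF-BB was added to eNAMPT, KIF9 differed by only 0.201 (adjusted p 0.844, edgeR). Under spike-in scaling no ARHGEF2 or KIF9 call held, though ARHGEF2 had 0.491 with PDGF-BB and 0.351 with both (0.475 and 0.493 relative to the median of all genes) and KIF9 0.946 (1.088 relative). In fits without 1 library the ARHGEF2 call ended in 4 of 10 with PDGF-BB and 1 of 10 with both, and the KIF9 call in 5 of 10. KIF9 and ARHGEF2 also overlap genes on the opposite strand, and each overlaps a gene on its own strand.

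Likeness of pattern was measured by Pearson's r of log2 CPM over the 20 libraries, against 12107 other genes; because all libraries share the treatments, such values are descriptions. RRAD was most like ZFP36L1, an mRNA decay factor (r 0.905), then ST3GAL1 (0.88), NFATC1 (0.875), the metallothionein MT2A (0.868) and RELB, an NF-kB subunit (0.866). After removal of group means, r with RRAD was 0.868 for MT2A and 0.541 for ST3GAL1. RHOB was most like ACTG1, cytoplasmic gamma actin (0.934), F3, tissue factor (0.91), and SPOCD1 (0.898). RND3 was most like HMGA2 (0.926), CCND1, cyclin D1 (0.914), and ITGA2, an integrin subunit (0.912). GEM had lower maxima, with RRP7BP (0.803), SLC38A1 (0.74) and ATP2B1, a plasma membrane calcium pump (0.716). RRP7BP is a pseudogene, and ACTG1 and MT2A have close relatives, so the share of reads assigned to each is uncertain.

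Among markers of other cells, the summed epithelial list differed between the same groups as RRAD, RHOB and RND3, from 136 to 182 CPM over eNAMPT libraries to 199.9 to 255 CPM over libraries with both factors. Nearly all of it was KRT18 (150.3 and 211 CPM in the group means), while EPCAM and CDH1 had at most 4 counts in any library. The endothelial sum was 2.998 to 7.61 and 5.20 to 7.25 CPM in those groups, the leukocyte sum 18.6 to 25.7 and 16.8 to 23.0, and the striated muscle sum 3.265 to 8.61 and 3.90 to 9.48. The part of these markers in the members' changes was not tested.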

How the data were processed

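The submitters' processing notes name the build GRCh38 and the tools STAR 2.6.1a, DESeq2 1.18.1, FastQC 0.11.7 and featureCounts 1.6.4. Raw counts for each gene and library were deposited by the authors. In the same table, per the file headers, the authors also gave a log2 fold change, its standard error (a score) and p-values for each pairwise comparison. A further deposited count table, never lower in any cell, served as an alternative.

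No spike-in row (99 in all) entered a gene test. With edgeR 4.0.16, filterByExpr kept 12111 of 58676 genes, and TMM set the scaling. The 20 libraries entered 1 quasi-likelihood fit with a mean per group (R 4.3.3), tested two-sided with Benjamini-Hochberg adjustment over all tested genes and a threshold of 0.05. The SE is the log2 fold change divided by the square root of F, and intervals use 16 degrees of freedom. Positions and exon lengths are from GENCODE 29. The members and lists were chosen with earlier results of these data known. The rule for named genes took every list gene that passed between both factors and eNAMPT, eNAMPT and control, or both and PDGF-BB, with REM1, REM2, RND2, RHOA, RHOC, ROCK1 and ROCK2, and the most similar genes by r (5 for RRAD, 3 for each other member, at a mean log2 CPM of at least 1). Alternatives were DESeq2 1.42.0, limma-voom (limma 3.58.1), RLE, spike-in scaling, 2 filters, the other table, only the groups compared, replicate number as a term, and leaving out each library. The fitting script was tested on simulated data. No 2 replicates of a group were identical: chi-square per degree of freedom was at least 2.62 in every pair. Results that need items withheld for evaluation are not reported here.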

Additional observations from a re-analysis of the deposited data

Results flagged for a closer look

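In 1 of 20 groups of 5 libraries (5 members in 4 groups), 1 library stood apart by its gap to the nearest other. Control replicate 3 had 7.55 CPM of GEM, against 6.14 in the next control library, a gap of 0.729 of the group's range where 0.71 is the 95% critical value. Chance flags about 1 in 20 such groups.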

How the results depend on the processing

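With PDGF-BB added to eNAMPT, 185 genes became 31 under spike-in scaling and 511 with the replicate block (replicate number as a term), and the 3 members became 1 under spike-in scaling. With eNAMPT alone, 9 genes became 14 without a low count filter and 21 with the block. With eNAMPT on PDGF-BB, 7 became 2 under spike-in scaling, 12 without the filter, 15 with the block and 11 when only the groups compared were fitted. With PDGF-BB against control, 147 became 40 under spike-in scaling and 377 with the block, and with both against control 240 became 50 and 510. The interaction passed 0 genes, 3 without the filter, 7 with the block, and 0 to 1 in fits without 1 library. No member changed its call under the block. Libraries of the same replicate number were weakly alike, and the main fit has no term for this. Of 30 same-numbered pairs of libraries, 12 had deviations correlated over 0.1 (lowest 0.001, median 0.09, highest 0.178). Pairs with different numbers had a median of -0.026 (-0.114 to 0.114). For 13 of 20 libraries the best correlation was with their own number. RRAD with eNAMPT alone had 0.61 with the block (adjusted p 0.540). Among uncalled values that changed sign were, with eNAMPT on PDGF-BB, GEM (0.081 to -0.056) and RND3 (0.093 to -0.081) under spike-in scaling, and the interaction of RHOB (0.063 to -0.065) and RND3 (0.066 to -0.129). Relative to the shifted median of all genes (-0.154), GEM and RND3 on PDGF-BB were 0.098 and 0.073. The interactions of RHOB and RND3 were 0.094 and 0.030 relative to their median (-0.159). Values that took either sign in fits without 1 library were the interaction of GEM (-0.532 to 0.041) and RHOB (-0.02 to 0.164), RHOB on PDGF-BB (-0.083 to 0.101), GEM on PDGF-BB (-0.044 to 0.19), and with eNAMPT alone RHOB (-0.137 to 0.002) and RND3 (-0.045 to 0.09). In fits without 1 library, RRAD with PDGF-BB on eNAMPT ran from 1.19 to 1.54, RHOB from 0.657 to 0.841 and RND3 from 0.358 to 0.475, all passing. The cause was not tested. Depth was lowest for GEM and RND1, with at most 58 and 6 counts in a library.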

Other observations

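Libraries with the same replicate number ranked alike for some members. RRAD was lowest in replicate 5 and next lowest in replicate 4 in each of the 4 groups. Set beside the control library of the same number, RRAD was higher with eNAMPT in 5 of 5 cases, GEM and RND3 in 3 of 5 and RHOB in 2 of 5. With eNAMPT on PDGF-BB, RND3 was higher in 5 of 5 cases, RRAD in 4, GEM in 3 and RHOB in 2.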
